A study of Homo sapiens with 6 samples.

Results

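Matrix metalloproteinases (MMPs), tissue inhibitors of metalloproteinases (TIMPs) and urokinase with its receptor were described in xenograft tumours of HT-29, an established human colorectal cancer cell line. The 9 genes chosen by symbol were MMP1, MMP7, MMP14, MMP15, TIMP1, TIMP2, TIMP3, PLAU and PLAUR. Rows carrying 8 of these symbols were found, 37 transcripts of 131516 and 8 genes of 29385, and TIMP3 was not analysed here. The ESV group received 60 mJ extracorporeal shock waves, acoustic pulses sent into tissue by an external source, and the control group was untreated. Each group was sampled at day 15 of the therapy and held 3 libraries. All 6 samples are labelled HT-29 xenografts of wild-type genotype, cell type colorectal cancer, with the same batch value. The host species is not given in the sources used here. No label ties the libraries to different animals. The p-values therefore describe only how these 6 libraries vary, which may be technical variation. Below, each ESV tumour or control stands for a library, and n counts libraries.

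MMPs are zinc-dependent enzymes that cut proteins of the extracellular matrix and of the cell surface. They are made with a propeptide that blocks the active site until it is removed, and TIMPs hold the active enzymes in check. Urokinase, encoded by PLAU, is a serine protease that turns plasminogen into plasmin when bound to its receptor, encoded by PLAUR, and plasmin in turn can activate several MMPs. In colorectal tumours MMP7, also called matrilysin, is known to be made by the tumour epithelium itself, whereas many other MMPs come mainly from stromal cells.

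The shared catalytic feature of the 4 MMPs is shown in the coding sequence of the transcript that held most of each gene's level, from GENCODE release 29 on GRCh38. Capitals mark the codons of the 3 histidines that bind zinc and of the catalytic glutamate that follows the first of them. Over these 33 bases MMP14 and MMP15 were identical at 28 and MMP1 and MMP7 at 24, so that the membrane-anchored pair was the most alike of the 6 pairs.
MMP1: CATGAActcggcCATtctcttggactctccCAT
MMP7: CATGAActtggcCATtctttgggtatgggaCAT
MMP14: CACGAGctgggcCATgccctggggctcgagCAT
MMP15: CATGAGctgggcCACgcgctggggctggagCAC

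The promoters of MMP7 and PLAUR are shown because both hold the binding sequence of AP-1, the FOS and JUN transcription factor. The windows come from RefSeq on GRCh38.p14, with 250 bases before and 50 after the start of the gene, and 6 of the 8 genes had one. AP-1 was searched as TGAGTCA on both strands, and a TATA box as TATAAA on the strand of the gene, and the matches do not overlap. Of 35116 such windows 4.95% held the AP-1 sequence and 7.33% the TATA box. In the MMP7 window, at chr11:102530698-102530997 on the minus strand, AP-1 began at position -67 from the start and the TATA box at -30. In the PLAUR window, at chr19:43670120-43670419 on the minus strand, AP-1 began at -186. Capitals mark the matches, which are a description of the letters and not of binding. The windows of MMP14, MMP15, TIMP1 and PLAU held neither sequence.
MMP7 promoter: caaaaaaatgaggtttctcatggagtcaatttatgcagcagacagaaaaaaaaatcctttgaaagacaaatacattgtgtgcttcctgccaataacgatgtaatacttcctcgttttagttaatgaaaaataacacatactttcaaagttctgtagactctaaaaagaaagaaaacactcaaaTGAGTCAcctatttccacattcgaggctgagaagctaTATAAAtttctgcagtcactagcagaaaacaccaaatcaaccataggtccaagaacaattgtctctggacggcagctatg
PLAUR promoter: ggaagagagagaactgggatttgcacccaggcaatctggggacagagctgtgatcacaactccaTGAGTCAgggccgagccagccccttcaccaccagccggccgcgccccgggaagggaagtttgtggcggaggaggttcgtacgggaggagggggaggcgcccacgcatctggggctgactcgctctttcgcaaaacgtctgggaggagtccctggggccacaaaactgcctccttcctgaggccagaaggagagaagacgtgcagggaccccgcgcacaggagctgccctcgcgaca

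Values are FPKM, which scale the fragments of a transcript by its length and by the depth of the library, summed over the transcripts of a gene. The values allowed whole reads to be recovered, with library totals of 48300000 to 58540000 reads. The colonic epithelial markers EPCAM, KRT20, KRT8, KRT18, CDX1, CDX2, VIL1, CDH17, LGALS4 and CDHR5 averaged at least 1 FPKM in all 10 cases and summed to 5176 to 6755 FPKM in ESV tumours and 4926 to 5855 in controls. ESV replicate 3 stood apart from the other libraries in how level depended on transcript length, with a log2 slope of -0.18 per doubling of length, against -0.05 and 0.04 in ESV replicates 1 and 2 and 0.055 to 0.068 in controls. Its summed FPKM of 571671 was also the highest of the 6. Each difference below was tested with limma on log2(FPKM + 1) over the 13451 genes that reached 1 FPKM in 3 or more libraries, with Benjamini-Hochberg adjusted p and a threshold of 0.05. Limma called 0% of these genes in either direction, and 6.94% had an unadjusted p under 0.05. 7 of the 8 genes entered this test, MMP1 being below the filter.

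MMP7, TIMP1 and PLAUR were the abundant genes, and MMP1 and PLAU lay near the floor. Averaged over the 6 libraries, the order of levels in FPKM per gene was MMP7 at 359, TIMP1 at 171, PLAUR at 105, MMP15 at 48.5, TIMP2 at 22.1, MMP14 at 10.8, PLAU at 1.75 and MMP1 at 0.394. MMP7 ranked 160 among the 13451 tested genes by level and TIMP1 ranked 332. The ranges of neighbours overlapped for MMP7 and TIMP1, for TIMP2 and MMP14 and for PLAU and MMP1. Within single libraries MMP7 exceeded TIMP1 in 6 of 6 and PLAU exceeded MMP1 in 6 of 6, but TIMP2 exceeded MMP14 in 4 of 6.

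**Figure D1:**
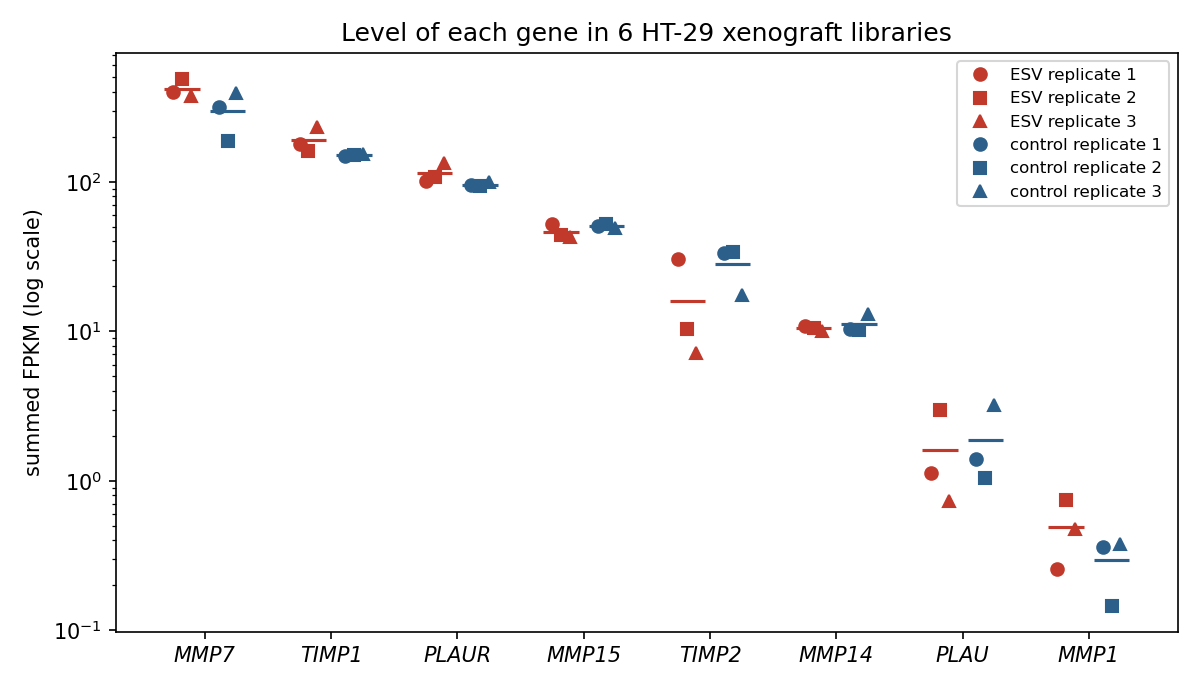
Summed FPKM of the 8 genes on a log scale, 1 point per library, with ESV tumours in red to the left of controls in blue and a bar at each group mean. The ESV points of TIMP1 and PLAUR lie above all 3 controls, and TIMP2 spans 7.14 to 33.9 FPKM over the 6 libraries.

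None of the 7 tested genes passed the threshold in ESV against control tumours, with adjusted p from 0.648 to 0.889. TIMP1 and PLAUR were higher in every ESV tumour than in every control, which is 2 of 7 tested genes where 7.75% of all tested genes lay so. No tested gene of the 8 lay below all controls, where 8.68% of all tested genes did. In these bulk samples fewer cells of a type and less RNA per cell cannot be told apart.

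**Figure D2:**
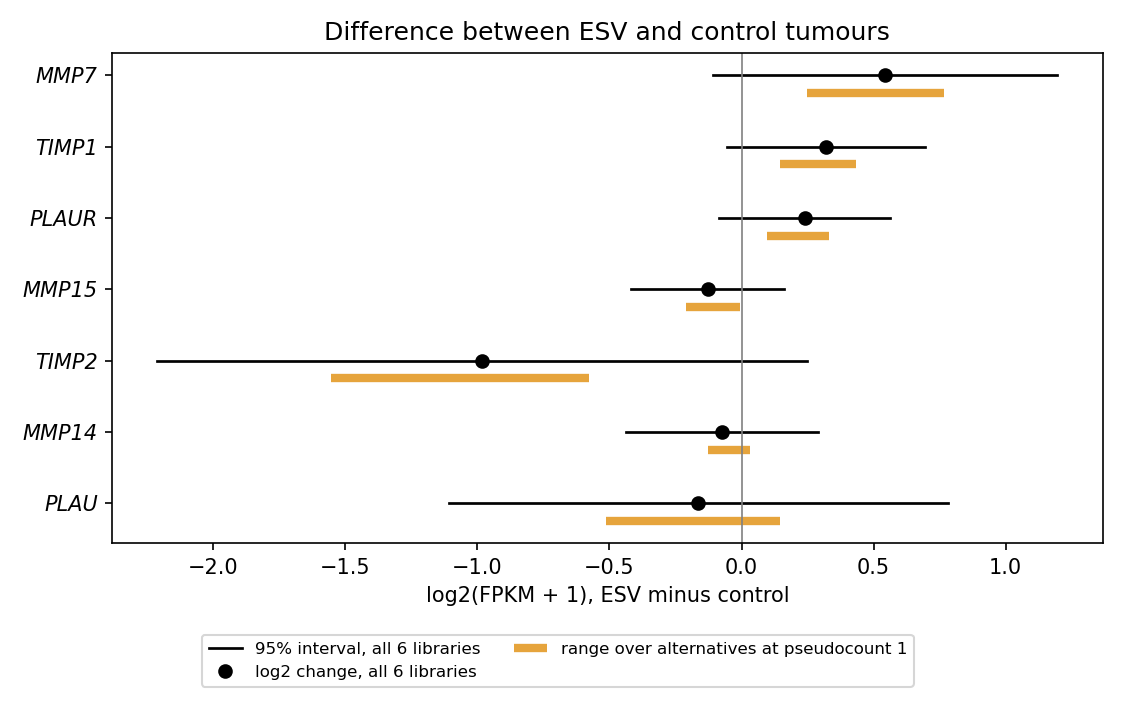
Log2 change in log2(FPKM + 1), ESV minus control, for the 7 tested genes (points) with 95% intervals (black lines) and the range over the alternative settings at a pseudocount of 1 (orange). The interval of each gene includes 0, and TIMP2 has the widest, from -2.21 to 0.25.

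Of the secreted enzymes, MMP7 was the most abundant gene of the set. It lies on chromosome 11 at 102520508 to 102530753 (hg38, minus strand) and is known to cleave E-cadherin and to process defensins in intestinal epithelium of mice. It measured 398, 485 and 376 FPKM in ESV tumours, against 316, 189 and 390 FPKM in controls. ESV replicate 2 was the highest and control replicate 2 the lowest, and the groups overlapped because control replicate 3 lay above ESV replicate 3. The means were 420 ± 57.7 FPKM in ESV tumours and 299 ± 101.8 in controls (SD, n = 3 each), a ratio of 1.41. The log2 change was 0.54 (SE 0.27, 95% interval -0.11 to 1.20, limma adjusted p = 0.648). Without control replicate 2 it was 0.25 and without control replicate 3 it was 0.77.

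Nearly all of MMP7 lay on 1 coding transcript, ENST00000260227, with 6 exons and 1125 bases. It held 98.9, 98.4 and 99.6% of the gene's FPKM in ESV tumours, against 97.3, 97.9 and 97.7% in controls. All 3 ESV tumours were above all 3 controls, by 1.31 percentage points on average, with an exact two-sided permutation p of 0.1, the smallest that 3 against 3 allows, and 0.7 adjusted over the 7 genes with more than 1 transcript above 0. The remainder was placed on 2 retained-intron transcripts. ENST00000533366 measured 3.98, 5.25 and 1.498 FPKM in ESV tumours, against 6.77, 3.31 and 5.99 in controls. ENST00000531200 measured 0.576, 2.39 and 0.128 FPKM in ESV tumours, against 1.85, 0.674 and 2.79 in controls. Both overlapped between groups, with limma adjusted p of 0.798 and 0.821 over 35958 transcripts.

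MMP1, the interstitial collagenase, lies on the same chromosome at 102789920 to 102798160 (minus strand) and stayed below 1 FPKM in each library. Its single listed transcript, ENST00000315274, measured 0.258, 0.744 and 0.477 FPKM in ESV tumours, against 0.360, 0.146 and 0.378 FPKM in controls. These rested on 28, 81 and 55 reads in ESV tumours and 37, 16 and 36 reads in controls, so counting error alone is a sizeable part of each value. The groups overlapped, and the gene was not tested. The pseudogene WTAPP1 overlaps MMP1 on the opposite strand and reached 0.231 FPKM, so part of the MMP1 reads is uncertain where counting did not use strand. Per length, MMP7 exceeded MMP1 by 652-fold to 1545-fold in ESV tumours and by 879-fold to 1291-fold in controls.

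The membrane-anchored enzymes varied little among libraries. MMP14, which activates the secreted gelatinase MMP2 with TIMP2 as a bridge, lies on chromosome 14 at 22836557 to 22849027 (plus strand). It measured 10.8, 10.5 and 10.1 FPKM in ESV tumours, against 10.3, 10.2 and 13.0 FPKM in controls. Control replicate 3 was the highest and the other 5 libraries lay within 10.1 to 10.8, so the groups overlapped. The log2 change was -0.07 (SE 0.15, 95% interval -0.44 to 0.29, limma adjusted p = 0.869), and it was 0.03 without control replicate 3, 0.01 with upper-quartile scaling and 0.02 with the length trend removed.

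MMP15, a close relative of MMP14, lies on chromosome 16 at 58025566 to 58046901 (plus strand). It measured 51.9, 44.2 and 43.0 FPKM in ESV tumours, against 50.9, 52.3 and 48.8 FPKM in controls. ESV replicates 2 and 3 were below all controls while ESV replicate 1 lay among them. The log2 change was -0.13 (SE 0.12, 95% interval -0.42 to 0.16, limma adjusted p = 0.714), and it was -0.01 with the length trend removed. MMP15 and MMP14 had SDs of log2 level over the 6 libraries of 0.12 each, at percentiles 7.78 and 8.75 among the tested genes, where the median gene had 0.28. MMP15 exceeded MMP14 by 4.20-fold to 4.79-fold in ESV tumours and by 3.77-fold to 5.12-fold in controls.

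Of the inhibitors, TIMP1 was the more abundant. It inhibits most secreted MMPs, lies on chromosome X at 47582313 to 47586789 (plus strand) and overlaps the opposite-strand gene SYN1, which reached at most 0.132 FPKM. TIMP1 measured 179, 161 and 232 FPKM in ESV tumours, against 148.6, 150.4 and 153 FPKM in controls. Every ESV tumour was above every control, and ESV replicate 3 was the highest. The means were 191 ± 36.8 FPKM in ESV tumours and 151 ± 2.26 in controls (SD, n = 3 each), a ratio of 1.26. TIMP1 had a log2 change of 0.32 (SE 0.16, 95% interval -0.05 to 0.69, limma adjusted p = 0.648).

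The TIMP1 transcripts average 887 bases when weighted by level, against a median of 2255 over the tested genes, and short transcripts were high in ESV replicate 3. With the length trend removed the log2 change of TIMP1 was 0.16, and with quantile normalization 0.15. Without ESV replicate 3 it was 0.17. Under the length correction and under quantile normalization the 3 ESV tumours stayed above the 3 controls. Its main transcript ENST00000218388 held 94.9, 96.3 and 95.4% of the level in ESV tumours, against 95.7, 96.3 and 94.7% in controls. The remaining TIMP1 transcripts named by level, ENST00000445623, ENST00000456754 and ENST00000377017, reached at most 5.54 FPKM and overlapped between groups. The main transcript was also higher in every ESV tumour, the only one of the 19 tested transcripts of these genes whose groups did not overlap, where 6.59% of all tested transcripts lay above and 7.61% below all controls. Limma called 0.064% of the 35958 transcripts as higher and 0.12% as lower, and 0 of the 19. Unadjusted, 6.4% of all transcripts had a p under 0.05 and 0 of the 19 did.

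TIMP2 varied most of the 7 tested genes, with an SD of log2 level of 0.90 over the 6 libraries, at percentile 96.3 among the tested genes. It inhibits MMPs and, bound to MMP14, helps to activate MMP2, and it lies on chromosome 17 at 78852977 to 78925387 (minus strand). It measured 30.5, 10.3 and 7.14 FPKM in ESV tumours, against 33.4, 33.9 and 17.6 FPKM in controls. ESV replicate 1 lay with control replicates 1 and 2, while ESV replicates 2 and 3 were the lowest and control replicate 3 lay between, so the groups overlapped. The recovered reads behind these values were 6113, 1996 and 1449 in ESV tumours and 6320, 6758 and 2931 in controls, so the differences within groups exceed counting error. The means were 15.96 ± 12.6 FPKM in ESV tumours and 28.3 ± 9.29 in controls (SD, n = 3 each), a ratio of 0.564. On the log2 scale the difference was -0.98 (SE 0.52, 95% interval -2.21 to 0.25, limma adjusted p = 0.648), and it was -1.55 without ESV replicate 1 and -0.58 without ESV replicate 3.

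The TIMP2 reads were divided between 2 coding transcripts in shares that differed among libraries. ENST00000262768, with 5 exons, measured 29.5, 5.59 and 3.02 FPKM in ESV tumours, against 32.5, 27.8 and 5.44 FPKM in controls. ENST00000586057, with 4 exons, measured 0.690, 4.47 and 3.87 FPKM in ESV tumours, against 0.226, 5.65 and 11.8 FPKM in controls. The first transcript held 97.0, 54.3 and 42.2% of the gene in ESV tumours, against 97.1, 82.2 and 30.9% in controls. Libraries of both groups were thus at either end, and the mean shares of 64.5 ± 28.8% in ESV tumours and 70.1 ± 34.7% in controls (SD, n = 3 each) had an exact two-sided permutation p of 0.9. Limma adjusted p was 0.823 for the level of the first transcript and 0.920 for that of the second.

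The coding parts of the 2 transcripts are 663 and 432 bases long, and the last 432 bases are identical. The shorter one therefore lacks the first 231 coding bases, which encode the signal for secretion and the start of the mature inhibitor. These bases are printed in capitals, because they are what the annotation sets apart between the 2 transcripts, followed by the first 12 shared bases in lower case. FPKM cannot show whether the shorter coding part is translated.
TIMP2 coding start in ENST00000262768: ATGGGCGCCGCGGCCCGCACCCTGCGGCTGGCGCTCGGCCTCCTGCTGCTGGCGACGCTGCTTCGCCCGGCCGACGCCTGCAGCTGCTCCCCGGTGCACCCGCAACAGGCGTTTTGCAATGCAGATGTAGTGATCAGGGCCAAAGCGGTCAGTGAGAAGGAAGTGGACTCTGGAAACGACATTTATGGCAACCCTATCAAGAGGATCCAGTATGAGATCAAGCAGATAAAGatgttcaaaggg

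**Figure D3:**
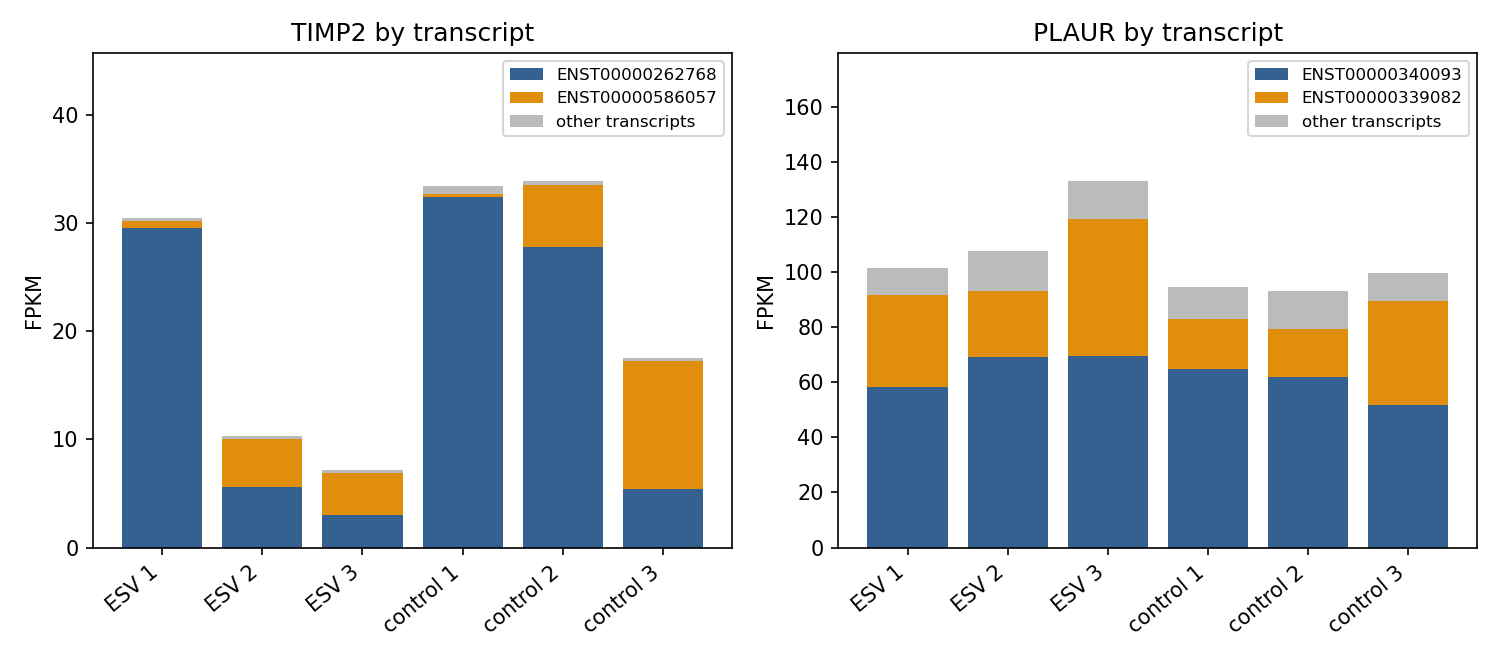
FPKM of TIMP2 (left) and PLAUR (right) stacked by transcript, 1 bar per library, with ESV tumours left of controls. The share of ENST00000262768 in TIMP2 spans 42.2 to 97.0% in ESV tumours and 30.9 to 97.1% in controls, and the second PLAUR transcript is highest in ESV replicate 3 and control replicate 3.

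Likeness was measured as the root mean square distance between centred log2 profiles over the 6 libraries. PHC3, ZRANB1 and CAPN7 were closest to TIMP2, at 0.29, 0.29 and 0.31. PHC3 measured 7.79, 1.84 and 0.727 FPKM in ESV tumours, against 9.04, 10.3 and 6.42 FPKM in controls. Like TIMP2 it was high in ESV replicate 1 and lowest in ESV replicate 3. A gene close to TIMP2 among 13451 over 6 libraries is a description of these libraries only.

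The abundance of inhibitor relative to enzyme was read from ratios of FPKM, as values without a test. MMP7 over TIMP1 was 2.22, 3.01 and 1.62 in ESV tumours, against 2.13, 1.26 and 2.55 in controls, so the groups overlapped. MMP14 over TIMP2 was 0.356, 1.02 and 1.42 in ESV tumours, against 0.308, 0.301 and 0.738 in controls. This ratio followed the low TIMP2 levels of ESV replicates 2 and 3 and control replicate 3, since MMP14 itself stayed within 10.1 to 13.0 FPKM. TIMP1 over TIMP2 was 5.87, 15.7 and 32.5 in ESV tumours, against 4.45, 4.44 and 8.72 in controls.

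In the urokinase system the receptor was abundant and the enzyme was not. PLAU lies on chromosome 10 at 73911104 to 73917497 (plus strand) and overlaps C10orf55 on the opposite strand, which reached at most 0.058 FPKM. PLAU measured 1.12, 2.98 and 0.729 FPKM in ESV tumours, against 1.39, 1.04 and 3.21 FPKM in controls. ESV replicate 2 and control replicate 3 were high and the groups overlapped. The log2 change was -0.16 (SE 0.40, 95% interval -1.11 to 0.78, limma adjusted p = 0.889), and it was 0.09 without ESV replicate 3 and 0.15 without control replicate 3. The values rested on 99 to 381 reads in ESV tumours and 134 to 360 in controls.

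PLAUR, which encodes the receptor that anchors urokinase at the cell surface, lies on chromosome 19 at 43646095 to 43670547 (minus strand). It measured 102, 108 and 133 FPKM in ESV tumours, against 94.8, 93.2 and 99.7 FPKM in controls. Every ESV tumour was above every control, with ESV replicate 3 the highest. The means were 114 ± 16.7 FPKM in ESV tumours and 95.9 ± 3.39 in controls (SD, n = 3 each), a ratio of 1.19. On the log2 scale the difference was 0.24 (SE 0.14, 95% interval -0.08 to 0.56, limma adjusted p = 0.648). With the length trend removed it was 0.16 and with quantile normalization 0.10, and in both settings the groups overlapped. Without ESV replicate 3 it was 0.13. The gene RN7SL368P overlaps PLAUR on the same strand and reached 1.87 FPKM. PLAUR over PLAU was 90.4, 36.2 and 183 in ESV tumours, against 68.2, 89.6 and 31.1 in controls.

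PLAUR had 15 listed transcripts, of which 2 held most of the level. ENST00000340093 measured 58.4, 69.4 and 69.7 FPKM in ESV tumours, against 64.7, 61.9 and 51.9 FPKM in controls. ENST00000339082 measured 33.2, 23.9 and 49.6 FPKM in ESV tumours, against 18.3, 17.4 and 37.6 FPKM in controls. Both overlapped between groups. For the first the log2 difference was 0.15 (SE 0.16) with a limma adjusted p of 0.839. For the second it was 0.55 (SE 0.40) with a limma adjusted p of 0.787, and 0.29 without ESV replicate 3. The first transcript held 57.4, 64.4 and 52.4% of the gene in ESV tumours, against 68.3, 66.4 and 52.0% in controls (exact two-sided permutation p = 0.6). ESV replicate 3 and control replicate 3 had the lowest of these shares. The other named transcripts, ENST00000221264, ENST00000597107, ENST00000598875 and ENST00000595038, reached at most 6.42 FPKM, and each overlapped between groups.

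The 2 PLAUR transcripts encode different ends of the receptor. Their first 757 coding bases are identical, and the coding parts are 1008 and 846 bases long. The end of the longer one encodes the signal for the glycolipid anchor that holds the receptor in the membrane, which the shorter form lacks. The coding ends are printed because they distinguish the 2 forms, with the last 12 shared bases in lower case and the diverging bases in capitals.
PLAUR ENST00000340093: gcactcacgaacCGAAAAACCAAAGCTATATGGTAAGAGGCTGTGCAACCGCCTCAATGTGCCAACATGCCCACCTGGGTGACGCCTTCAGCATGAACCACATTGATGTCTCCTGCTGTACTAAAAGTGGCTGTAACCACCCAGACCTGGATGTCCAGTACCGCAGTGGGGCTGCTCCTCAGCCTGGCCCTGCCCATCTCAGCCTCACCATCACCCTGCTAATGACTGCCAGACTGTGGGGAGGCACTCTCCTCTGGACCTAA
PLAUR ENST00000339082: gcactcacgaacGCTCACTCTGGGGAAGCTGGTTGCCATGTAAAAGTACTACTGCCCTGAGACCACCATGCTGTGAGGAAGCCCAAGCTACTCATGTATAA

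The other genes of the pathway were taken from 7 lists, chosen with earlier results of these data known. Of 103 measured genes in these lists 75 were tested and 0 passed limma's threshold in either direction. An unadjusted limma p under 0.05 was found for 5 of the 75, where 6.94% of all tested genes had one. Of the 75, 31 had a positive and 44 a negative log2 change, with a median of -0.07, where all tested genes had 6509 positive and 6942 negative changes and a median of -0.01. The lists were also counted without ESV replicate 3, with the length trend removed and with quantile normalization, settings applied to them after seeing the data. All lists together then had 33, 37 and 25 positive against 42, 38 and 50 negative changes. All tested genes had 7010, 6660 and 6978 positive against 6441, 6787 and 6473 negative changes. As deposited, groups did not overlap for 5 genes above and 7 below, against 7.75% and 8.68% of all tested genes. Outside the naming rule, and named after their values were seen, these included CTSD above and ADAM10 and ETV1 below.

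Other MMPs were barely present. Of 19 listed, 13 had a row, and MMP9 was not among them. Of these 13 only MMP24 reached the filter, and the gelatinase MMP2 reached at most 0.192 FPKM. All 29385 genes with a row had a value above 0 in some library. Whether genes without a row were undetected or left out is not given in the sources used here. MMP24, a membrane-anchored MMP known from neural tissue, measured 7.46, 9.88 and 3.98 FPKM in ESV tumours, against 7.80, 8.13 and 8.16 FPKM in controls. Its log2 change was -0.23 (limma adjusted p = 0.778), and it was 0.09 without ESV replicate 3. It overlaps the opposite-strand gene MMP24OS, which measured 33.3 to 68.9 FPKM, and the MMP24 values are uncertain where counting did not use strand. Among the other named genes of these lists, abundant opposite-strand neighbours overlap FOSB (ERCC1, 32.3 to 43.5 FPKM), LRP1 (STAT6, 62.7 to 93.4 FPKM), ADAM17 (IAH1, 19.5 to 42.0 FPKM) and LAMB1 (DLD, 11.8 to 27.3 FPKM), with the same limit. Of the ADAM and ADAMTS proteases 7 of 13 were tested, 2 with a positive and 5 with a negative change (median -0.18, and -0.08 with the length trend removed). ADAM15, the most abundant, measured 30.6 ± 7.48 FPKM in ESV tumours and 32.7 ± 0.199 in controls. ADAM17, which sheds TNF and EGF receptor ligands, measured 7.39 ± 1.37 FPKM in ESV tumours and 9.21 ± 0.552 in controls (limma adjusted p = 0.648). ADAM19 measured 3.58 ± 1.55 FPKM in ESV tumours and 4.79 ± 0.391 in controls (SD, n = 3 each). ADAM19 overlaps the opposite-strand gene CYFIP2, at 0.887 to 5.39 FPKM, so its values are uncertain where counting did not use strand.

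Among other protease inhibitors 7 of 9 were tested, 5 positive and 2 negative (median 0.16). With quantile normalization 3 were positive and 4 negative (median -0.02), and without ESV replicate 3 the median was 0.03. CST3, the cathepsin inhibitor cystatin C, measured 516, 406 and 750 FPKM in ESV tumours, against 372, 379 and 351 FPKM in controls. All ESV tumours were above all controls, with a log2 change of 0.55 (SE 0.23, unadjusted p = 0.0470, limma adjusted p = 0.648), which was 0.32 without ESV replicate 3, 0.39 with the length trend removed and 0.29 with quantile normalization. SPINT2, an inhibitor of membrane serine proteases, measured 503 ± 97.6 FPKM in ESV tumours and 417 ± 44.6 in controls (SD, n = 3 each). Its log2 change of 0.26 was -0.02 with quantile normalization.

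Of the plasminogen system 10 of 15 genes were tested, 7 positive and 3 negative (median 0.12). With quantile normalization 4 were positive and 6 negative (median -0.07). PLGRKT, a plasminogen receptor of the cell surface, had the smallest unadjusted p of the 75 genes. It measured 20.3, 24.7 and 26.2 FPKM in ESV tumours, against 16.2, 16.4 and 15.2 FPKM in controls. The groups did not overlap, with a log2 change of 0.54 (SE 0.14, unadjusted p = 0.00692, limma adjusted p = 0.648). The change of PLGRKT was 0.38 with the length trend removed, 0.47 without ESV replicate 3 and 0.55 with quantile normalization. LRP1, an endocytic receptor that helps to clear urokinase from the cell surface, measured 22.5, 23.8 and 7.47 FPKM in ESV tumours, against 39.6, 29.8 and 39.8 FPKM in controls. All ESV tumours were below all controls, with a log2 change of -1.12 (SE 0.41, unadjusted p = 0.0305, limma adjusted p = 0.648). It was -0.62 without ESV replicate 3 and -0.80 with the length trend removed.

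SERPINF2, the plasmin inhibitor alpha-2-antiplasmin, was also higher in every ESV tumour, at 6.54, 5.41 and 6.52 FPKM, against 3.52, 0.0868 and 4.51 FPKM in controls. It was chosen after its values were seen, and its log2 change of 1.25 (SE 0.59, limma adjusted p = 0.648) was 0.52 without the low control replicate 2. ANXA2, an annexin that binds plasminogen and its activator, was the most abundant of the list at 1522 ± 189.9 FPKM in ESV tumours and 1324 ± 51.9 in controls (SD, n = 3 each). Its log2 change of 0.19 was -0.08 with quantile normalization.

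The 19 activators and surface partners were all tested, 9 positive and 10 negative (median -0.07). Without ESV replicate 3, 12 were positive and 7 negative (median 0.04). LCN2, a lipocalin that binds and stabilizes MMP9, measured 129.8, 99.3 and 82.2 FPKM in ESV tumours, against 69.5, 44.9 and 62.3 FPKM in controls. All ESV tumours were above all controls, with a log2 change of 0.80 (SE 0.23, unadjusted p = 0.00960, limma adjusted p = 0.648), which was 0.62 with the length trend removed. PCSK5, a proprotein convertase, measured 5.21, 4.35 and 3.58 FPKM in ESV tumours, against 5.38, 7.53 and 6.18 FPKM in controls, with a log2 change of -0.45 (limma adjusted p = 0.648) that was -0.27 with the length trend removed. CD63, a tetraspanin that binds TIMP1 at the cell surface, measured 569 ± 26.3 FPKM in ESV tumours and 504 ± 42.7 in controls (SD, n = 3 each). Its log2 change of 0.18 was -0.08 with quantile normalization.

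**Figure D4:**
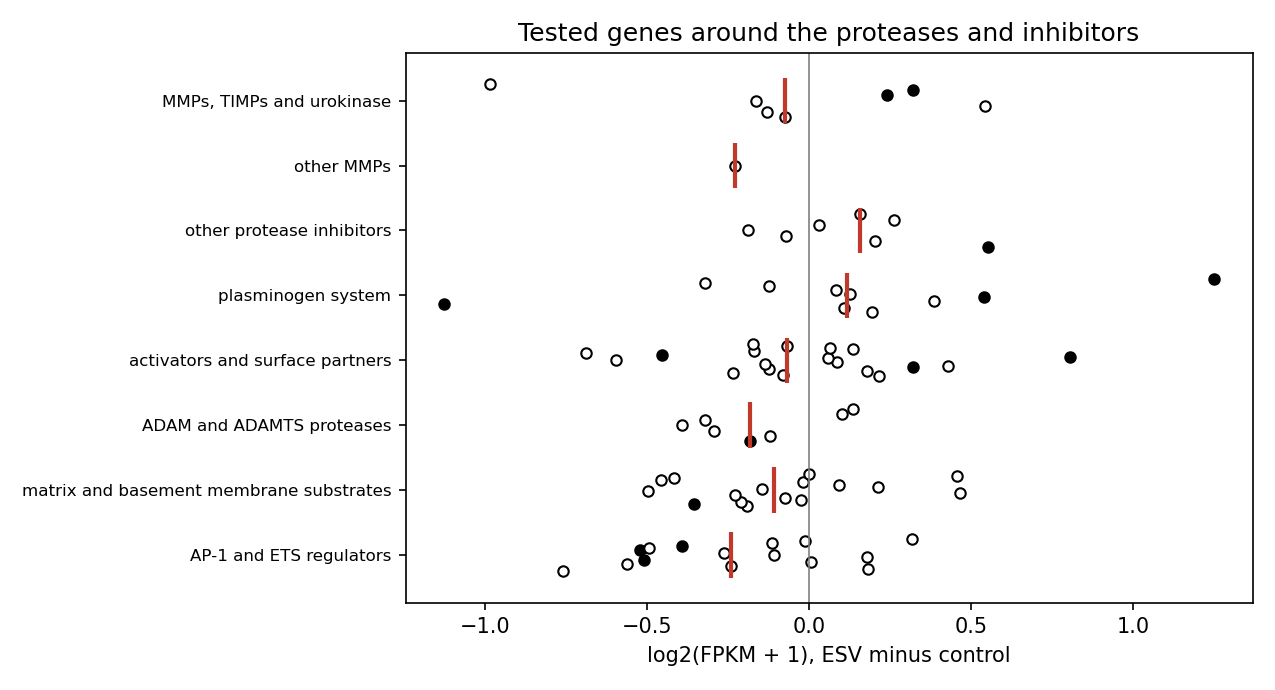
Log2 change in log2(FPKM + 1), ESV minus control, of each tested gene, by list. Filled points are genes whose ESV and control groups do not overlap, and red bars are list medians, which lie between -0.24 for AP-1 and ETS regulators and 0.16 for other protease inhibitors, the second of these being -0.02 with quantile normalization.

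Of the matrix and basement membrane substrates 16 of 19 were tested, 4 positive and 12 negative (median -0.11). ESV replicate 3 held the lowest of the 6 values for 7 of the 16, and with the length trend removed 10 were positive and 6 negative (median 0.04). AGRN, a heparan sulphate proteoglycan of basement membranes, measured 298 ± 34.3 FPKM in ESV tumours and 339 ± 18.4 in controls (SD, n = 3 each). Its log2 change of -0.19 was 0.02 with the length trend removed. CDH1, which encodes the MMP7 substrate E-cadherin, measured 85.9, 104.5 and 66.9 FPKM in ESV tumours, against 113, 106.8 and 105.1 FPKM in controls. The groups did not overlap, with a log2 difference of -0.36 (SE 0.17, limma adjusted p = 0.648), which was -0.19 without ESV replicate 3. LAMB1, a laminin chain, measured 29.3 ± 2.30 FPKM in ESV tumours and 25.2 ± 2.73 in controls (SD, n = 3 each).

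The AP-1 and ETS regulators, which can bind MMP and urokinase receptor promoters, were all tested, 4 of 15 positive and 11 negative (median -0.24). ESV replicate 3 held the lowest of the 6 values for 6 of the 15. Without it 2 were positive and 13 negative, with a median of -0.08, and with the length trend removed the split was 4 and 11 with a median of -0.19. FOSB, an AP-1 subunit, measured 1.93, 1.48 and 1.97 FPKM in ESV tumours, against 3.16, 2.60 and 3.25 FPKM in controls. All ESV tumours were below all controls, with a log2 change of -0.52 (SE 0.18, unadjusted p = 0.0214, limma adjusted p = 0.648). FOSL2, another AP-1 subunit, measured 23.5, 24.6 and 18.6 FPKM in ESV tumours, against 34.5, 25.01 and 29.2 FPKM in controls. Its groups did not overlap, with a log2 difference of -0.39 (SE 0.17, limma adjusted p = 0.648), which was -0.19 with the length trend removed. ELF3, an epithelial ETS factor, measured 132 ± 41.9 FPKM in ESV tumours and 115 ± 27.2 in controls (SD, n = 3 each). Its log2 change of 0.18 was -0.05 without ESV replicate 3.

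Most measured markers of other cell types that make MMPs and TIMPs averaged under 1 FPKM on the human transcripts. CSPG4 and CD68, at means of 24.6 and 11.0 FPKM over the 6 libraries, lay above the median of 9.17 FPKM over the tested genes. Fibroblast markers (8 of 10 measured) summed to 4.88 to 16.2 FPKM in ESV tumours and 11.1 to 26.7 in controls, without COL3A1, DCN, POSTN or THY1 above 0.0471 FPKM. COL1A1 was the largest part of the sum in each library but ESV replicate 1, at 1.32, 9.25 and 3.45 FPKM in ESV tumours, against 23.0, 5.78 and 8.24 FPKM in controls. Its groups overlapped, and LUM and FAP lay between 1.14 and 3.63 FPKM in the 6 libraries. Macrophage markers (4 of 10) summed to 11.1 to 13.3 FPKM in ESV tumours and 13.1 to 18.8 in controls, mostly CD68, and CSF1R was at 0 in all ESV tumours and at most 0.0814 FPKM in controls. Endothelial markers (7 of 10) summed to 4.65 to 11.4 FPKM in ESV tumours and 2.17 to 6.74 in controls. Most of that sum was ESAM, at 4.16, 10.4 and 5.92 FPKM in ESV tumours, against 3.10, 1.39 and 6.41 FPKM in controls, with overlapping groups. VWF reached at most 0.0477 FPKM and PECAM1 at most 0.677 FPKM. Neutrophil markers (3 of 8) summed to 0.0225 to 0.126 FPKM in ESV tumours and 0 in controls.

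Pericyte and smooth muscle markers (8 of 8) summed to 16.4 to 29.1 FPKM in ESV tumours and 30.8 to 37.4 in controls, without overlap. Of all tested genes, 8.68% lay below all controls. The lowest sum was that of ESV replicate 3, which stood apart in its length trend, and the sums were not corrected for that trend. Most of the marker sum was CSPG4, at 22.7, 24.5 and 13.96 FPKM in ESV tumours, against 26.1, 28.6 and 31.6 FPKM in controls. PDGFRB reached at most 0.217 FPKM. TAGLN, an actin-binding protein of smooth muscle, measured 0.218, 0.986 and 0.164 FPKM in ESV tumours, against 1.68, 2.25 and 2.32 FPKM in controls. All ESV tumours were below all controls, with a log2 difference of -1.12 (SE 0.25, unadjusted p = 0.00307 and limma adjusted p = 0.648), the smallest unadjusted p of the listed genes. TAGLN was named after its values were seen. It reached 1 FPKM only in the 3 controls, so it passed the filter only through the group where it was high. A lower level in ESV tumours was thus favoured in advance, and neither its p nor its rank can be read as support for a difference. ACTA2 measured 2.575, 1.38 and 1.05 FPKM in ESV tumours, against 1.14, 0.960 and 1.32 FPKM in controls, and DES measured 0.723, 1.29 and 0.552 FPKM in ESV tumours, against 0.398, 0.611 and 0.203 FPKM in controls, both with means higher in ESV tumours and with overlapping groups. Whether reads of host cells were removed is not given in the sources used here. The part of other cells in the values of the MMPs, TIMPs and urokinase genes was not tested.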

How the data were processed

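The deposited table gives 131516 transcripts in 6 HT-29 xenograft libraries. Trizol extraction and a SMARTER mRNA kit gave the libraries, per the labels' protocols. The submitters' processing notes name hg38; how reads were aligned and counted, and whether by strand, is not given in the sources used here. The authors' deposited values were read as FPKM, because when multiplied by GENCODE 29 transcript length 99.64 to 99.69% of values worth up to 100 reads lay within 0.05 of a whole read. Of the rows, 15031 are assembled transcripts without a gene; they entered the transcript test only, and no sample column was left unused.

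FPKM were summed per gene. Differences were tested on log2(FPKM + 1) by limma 3.58.1 (R 4.3.3, trended prior variance) over 13451 genes and separately 35958 transcripts with at least 1 FPKM in 3 libraries. That scale understates changes of low genes. Intervals are from limma. Transcript shares used exact permutation over 20 arrangements. The treatment label set the group, because the ESV titles also carry the word con; titles gave the replicate number. Members and lists were chosen with earlier results of these data known. Named were all members, their transcripts with a mean of at least 1 FPKM or 10% of the gene, and from each list the most abundant tested gene and the 2 with the smallest p.

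Checked on simulated data with 200 of 13451 genes changed, the gene test found 40.6% of log2 changes of 1 and 93.2% of those of 2. With 200 of 35958 transcripts changed, the transcript test found 0.1% and 27.6%. The simulated noise was independent among features and libraries and held no length trend. The planted changes were of log2 1 to 4, and each tested member's gene-level change was smaller than 1. These rates therefore do not give the sensitivity for the members. Alternatives were an untrended limma prior, 2 other scalings (upper quartile and quantile), a filter of 5 FPKM or none, 0.1 as pseudocount, a replicate block, each library left out, removal per library of a length trend, and limma voom on recovered reads.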

Additional observations from a re-analysis of the deposited data

How the results depend on the processing

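None of the 7 tested genes and 18 tested named transcripts of members passed the threshold in any alternative that gave them a value, with gene adjusted p between 0.328 and 0.991. PLAU and several low transcripts had none with the filter of 5 FPKM, nor PLAUR ENST00000595038 with voom. MMP7, TIMP1 and PLAUR kept a positive and MMP15 and TIMP2 a negative gene-level change in all of them. Over all genes, limma gave 0 higher and 0 lower (933 at an unadjusted p under 0.05). Limma voom on recovered reads gave 0 higher and 2 lower (FAM168B and PDXK), and leaving out 1 library gave 0 to 1 higher and 0 to 4 lower. Those were AC068580.4 above and MBNL3, SEC16A, PDXK and NOL4L below without ESV replicate 2, and GTF2F2 below without ESV replicate 3, named after their values were seen. The counts over all transcripts, 23 higher and 43 lower, were less stable. They were 1 and 5 with no filter, 8 and 14 with a filter of 5 FPKM, 0 and 0 with voom (1569 at an unadjusted p under 0.05), and 16 and 23 with a pseudocount of 0.1. Leaving out 1 library gave 0 to 5 higher and 0 to 16 lower, the smallest without control replicate 3. With the replicate number as a block there were 0 and 0 (2151 at an unadjusted p under 0.05). Whether the number pairs the samples is not given in the sources used here. Deviations of same-numbered libraries correlated at -0.01, -0.01 and 0.03 over genes, and the highest of the 9 cross-group correlations was 0.04. Correlations over so few libraries cannot decide whether samples were paired. The block changed no call of a member.

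Signs changed as follows, none of them called. With upper-quartile scaling MMP14 had 0.011, its transcript ENST00000311852 0.044 and MMP15 ENST00000219271 0.0069. With the length trend removed MMP14 had 0.024 and AGRN 0.019. With quantile normalization SPINT2 had -0.015, ANXA2 -0.076, CD63 -0.078 and PLAUR ENST00000340093 -0.031. With 1 library left out MMP14 ranged from -0.13 to 0.031, PLAU from -0.51 to 0.15, MMP24 from -0.48 to 0.087, ADAM15 from -0.29 to 0.0445 and ELF3 from -0.0496 to 0.40. Of transcripts, MMP14 ENST00000311852 ranged from -0.15 to 0.022, PLAU ENST00000372764 from -0.50 to 0.17, PLAUR ENST00000221264 from -0.0494 to 0.52 and TIMP2 ENST00000586057 from -1.38 to 0.32. The share of the main transcript differed between groups, in percentage points, by -2.2 to 3.24 for PLAU, -0.492 to 0.308 for TIMP1 and -25.1 to 7.95 for TIMP2 with 1 library left out. The cause of these changes was not tested. MMP1 and PLAU rest on few reads, which limits what could be detected there.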
